A study of Homo sapiens with 3 samples.

Results

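The sites described here are 641 intervals of KBM7 cells that carried H3K4me3 together with H3K27ac but lay where RefSeq lists no gene. They were chosen by 4 conditions on the H3K4me3 peak list: a fold enrichment of at least 10, an overlap with an H3K27ac peak, more than 5 kb to any RefSeq gene record of any biotype, and no overlap with a super-enhancer. Of 36951 H3K4me3 peaks on chromosomes 1 to 22 and X, 18615 had the required fold and 16713 of these (89.8%) overlapped H3K27ac. Of the 16713, 774 lay over 5 kb from a gene record, and 133 of those were inside super-enhancers, which left 641 (3.84%). The H3K4me3 fold and the presence of H3K27ac were thus measured values that the sites were selected on, and they are given as a description. KBM7 cells are leukaemic, derived from chronic myeloid leukaemia in blast crisis, with the BCR-ABL fusion and mostly 1 copy of each chromosome, and the labels list no genetic change or treatment. Each mark was measured by chromatin immunoprecipitation and sequencing in 1 library of this single line, beside 1 input library. No value therefore has a replicate error, no test between groups was possible, and the intervals given cover counting error only.

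H3K4me3, trimethylation of lysine 4 of histone H3, is laid down where RNA polymerase II starts transcription, and is usually broad and strong at promoters rich in CpG dinucleotides. H3K27ac, acetylation of lysine 27, is found at active promoters and at active enhancers. Enhancers usually carry little H3K4me3, so a strong peak of it far from any gene is often used to search for start sites missing from gene catalogues. RNA was not measured in these files, so whether the sites are transcribed was not tested. Whether the sites act as promoters or as enhancers was not tested either.

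The myeloid label was checked against the ends of marker genes. All 10 myeloid and progenitor markers, such as MPO, SPI1 and KIT, had both marks within 1 kb of a gene end, against 3 of 5 T cell, 3 of 4 B cell and 1 of 4 epithelial markers (KRT8). Since 60.4% of all protein-coding genes had both marks at an end, and most T and B cell markers did too, these counts hardly separate the blood lineages. The strength of a peak is the fold enrichment of its summit over an expected background, as the authors deposited it. The fold and p-value together gave the number of fragments at each summit, which was 29 to 315 at the sites with a median of 72.

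One site lay on the upstream side of the MIR183 cluster, microRNA genes known to be cut from a common transcript. The H3K4me3 interval on chromosome 7 (hg38, 129784877 to 129786200, 1324 bp) had a fold of 14.1 with 57 fragments at the summit. It lay 9863 bp from MIR183, 10108 bp from MIR96 and 14385 bp from MIR182, all on the minus strand. Its H3K27ac was weak, with a fold of 4.11 from 18 fragments, and covered 50.2% of the interval. The mature 5p arms of the cluster, from RefSeq on GRCh38.p14, are printed without the 3p arms, 5′ to 3′ with the seed, bases 2 to 8, in capitals.
hsa-miR-183-5p: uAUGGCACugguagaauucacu
hsa-miR-96-5p: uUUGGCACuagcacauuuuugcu
hsa-miR-182-5p: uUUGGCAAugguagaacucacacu
No pair among these 3 shares its whole seed. Among 281 microRNA hairpins outside every other gene record, 15 lay within 50 kb of a site, and for 6 of them the site was on the upstream side. No share of other gene records that near a site is given beside this count. MIR96 and MIR182 were among the 6, but MIR183 was not among the 15. The strongest site beside any of the 15 was near MIR3143 on chromosome 6 (27188026 to 27189104, fold 47.2), on its downstream side. These neighbours were looked up after the sites were known.

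Some sites lay within 20 kb upstream of a gene whose own start carried no H3K4me3. A start is listed with its strand for 15812 of the 19974 protein-coding genes, and 69.7% of the 15812 had H3K4me3 within 1 kb of one. The nearest protein-coding gene had a listed start for 487 sites, and it was marked at 407 of these (83.6%, 95% Wilson interval 80.0 to 86.6). At long non-coding RNA gene ends this share was 74.3% (69.6 to 78.4) and at peaks inside genes 92.3%. At the other 80 sites, which are nearest to 79 genes, the start was not marked. Of these 80 sites 43 were upstream of the gene, beside 257 of all 487 (52.8%), so the upstream side was about as frequent. The start was marked at 83.3% of upstream and 83.9% of downstream sites. In 17 cases the site was upstream of the unmarked gene and within 20 kb, and no such count was made for marked genes. These 17 were picked out after their values were seen, and 4 of them had a fold of at least 40. The strongest was 10254 bp upstream of MLPH, which encodes melanophilin, an adaptor of pigment granule transport (chromosome 2, 237474606 to 237476156, fold 58.8, 228 fragments, H3K27ac fold 12.0). The next was 5174 bp upstream of TAL2, a transcription factor gene related to the blood factor TAL1 (chromosome 9, 105655834 to 105657283, fold 54.7, 174 fragments, H3K27ac fold 9.75). The other pair were upstream of NLRP6, an innate immune sensor gene (fold 49.5, 8525 bp away), and of LBHD2 (fold 43.7, 7933 bp away). The 250 bases before a listed start of both leading genes are printed with CpG in capitals, since the peaks lie outside them.
MLPH, chr2:237487001-237487250, plus strand, GRCh38.p14: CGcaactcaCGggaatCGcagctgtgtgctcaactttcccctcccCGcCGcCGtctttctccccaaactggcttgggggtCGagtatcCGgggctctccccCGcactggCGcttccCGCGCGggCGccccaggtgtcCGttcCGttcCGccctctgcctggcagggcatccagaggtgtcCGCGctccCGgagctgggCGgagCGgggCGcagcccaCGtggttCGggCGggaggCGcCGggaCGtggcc
TAL2, chr9:105662207-105662456, plus strand, GRCh38.p14: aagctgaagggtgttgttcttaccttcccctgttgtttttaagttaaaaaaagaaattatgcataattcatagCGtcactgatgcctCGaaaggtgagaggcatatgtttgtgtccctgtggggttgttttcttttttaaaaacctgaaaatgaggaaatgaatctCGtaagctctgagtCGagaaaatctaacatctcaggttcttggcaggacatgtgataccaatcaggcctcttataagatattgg
The MLPH stretch holds 29 CpG and a G or C share of 72.4%, and the nearest H3K4me3 peak was the site itself, 10845 bp away. The TAL2 stretch holds 4 CpG with a share of 38.8%, and its nearest H3K4me3 was the site 4924 bp away. Over the 102 listed windows (300 bases) of the 79 unmarked genes, the median was 5 CpG, and 26.5% of windows held at least 10. Over 540 windows of the 348 marked nearest genes the median was 26 CpG, and 80.6% held at least 10, beside 70.1% of the 22132 windows of all protein-coding genes. Unmarked genes that are not nearest to a site were not counted separately. These values therefore set unmarked beside marked genes and show no trait of genes near the sites. The other listed start of MLPH has 2 CpG in its 250 bases, so the gene has 1 CpG-rich and 1 CpG-poor start, both without H3K4me3.

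Most sites were weak beside peaks at protein-coding gene ends, and a minority reached the strength usual there. The median fold was 18.2 (interquartile range 12.3 to 32.1, highest 89.3). A fold of at least 40 was reached by 114 of 641 sites (17.8%, 15.02 to 20.9), against 68.1% of all 16713 peaks with both marks. Those 16713 include peaks inside super-enhancers. The 3 comparison classes that follow met the same fold, H3K27ac and super-enhancer conditions as the sites. A gene end is either end of a gene record, so peaks at gene ends need not lie at promoters. Of 10595 peaks within 1 kb of a protein-coding gene end, 87.0% reached a fold of 40. Of 475 peaks at ends of long non-coding RNA genes, over 5 kb from any protein-coding gene, 42.7% did. Of 1646 peaks inside genes and over 5 kb from any gene end, 33.5% did. The scatter of folds and widths shows the sites spread over the whole range of strength.

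**Figure D1:**
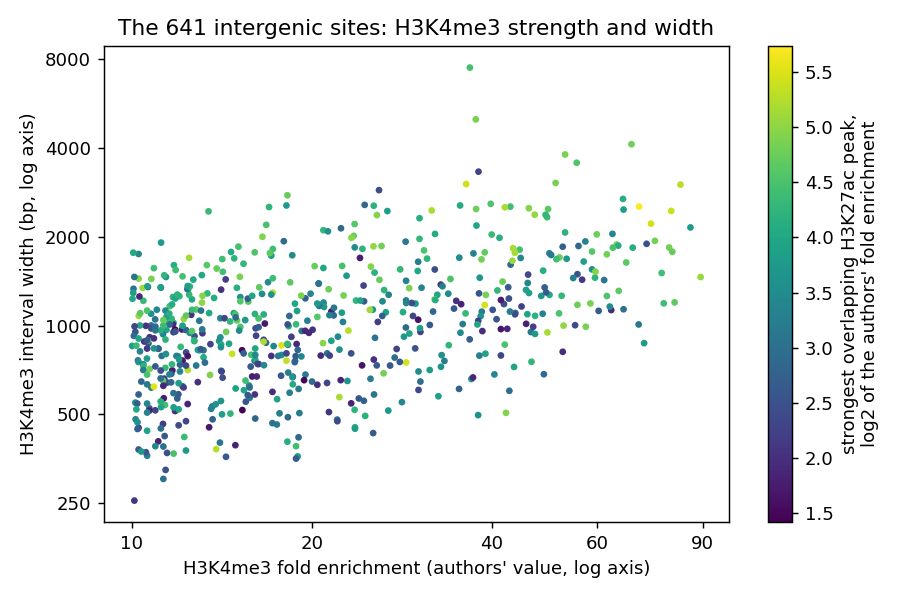
Each point is 1 of the 641 sites, placed by H3K4me3 fold enrichment (horizontal, log axis) and interval width in bp (vertical, log axis) and coloured by the log2 fold of the strongest overlapping H3K27ac peak. Sites crowd between folds of 10 and 20 with widths near 1000 bp, and the widest, at 7499 bp, had a fold of only 36.7.

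The threshold cut through a continuous range. The weakest sites had folds of 10.01, 10.03 and 10.05 (38, 34 and 37 fragments), near TMEM236, MRPS31 and ALOX15B, and the strongest peaks just below it had 9.999, 9.999 and 9.99 (31, 31 and 46 fragments). For the distance, the nearest sites lay 5006, 5055 and 5056 bp from a record, and the first peaks left out lay 5000, 4995 and 4992 bp away.

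The 10 strongest sites had folds of 74.9 to 89.3, around or above the upper quartile of protein-coding gene ends (75.5), and lay 6229 to 40779 bp from the nearest record. The highest fold, 89.3 with 260 fragments, was on chromosome 16 (75516007 to 75517467), 11063 bp from CHST5, a sulfotransferase gene, and 10715 bp from the pseudogene TMEM231P1. The next was on chromosome 19 (29844175 to 29846326, fold 85.9, 250 fragments), 19863 bp downstream of CCNE1, the cyclin that drives entry into S phase. On chromosome 18 a site of 3007 bp (39797741 to 39800747, fold 82.6) lay 39549 bp from LINC01901 and 2023053 bp from a protein-coding gene. These 3 had H3K27ac folds of 33.4, 13.4 and 39.1, so acetylation did not follow the order of H3K4me3.

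Several others of the 10 strongest lay beside widely expressed genes whose own starts were marked. One was 17985 bp downstream of MYL12B, a myosin light chain gene (fold 80.8), and one 47461 bp downstream of RBX1, a subunit of cullin ubiquitin ligases (fold 79.7). On chromosome 13 one was 30447 bp upstream of MPHOSPH8, a gene of the HUSH silencing complex (fold 79.1). On the X chromosome one was 28125 bp upstream of RBMX, an RNA-binding protein gene (fold 74.9). The other members of the 10 were near ZNF823 (fold 80.1), TUBB4A (77.5) and LSM14A (76.9). With the CCNE1 site, chromosome 19 thus held 4 of the 10, and the interval map shows the marks lying together at each.

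**Figure D2:**
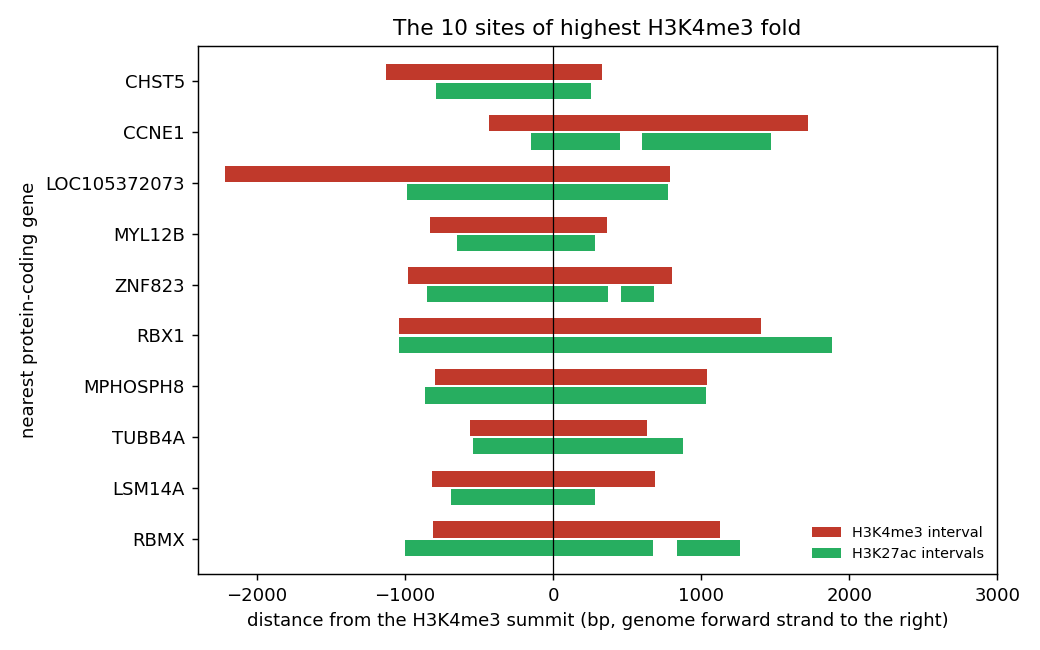
Intervals of H3K4me3 (red) and H3K27ac (green) at the 10 sites of highest H3K4me3 fold, by distance in bp from the H3K4me3 summit, which is the vertical line at 0. Rows are named by the nearest protein-coding gene, and H3K27ac covered the H3K4me3 summit in all 10.

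Within bands of H3K4me3 fold the stronger sites were narrower than peaks at gene ends. The bands did not make strength fully equal. Median summit fragments at folds of 40 to 60 were 172 at the sites and 243 at protein-coding gene ends. At 60 or more they were 219.5 and 267. At folds of 60 or more the 32 sites had a median H3K4me3 width of 1809 bp (interquartile range 1244.75 to 2073.25). Protein-coding gene ends had 2786 bp (2211 to 3545), long non-coding RNA gene ends 2146 bp and peaks inside genes 2532 bp. At folds of 40 to 60 the 82 sites had 1334 bp (1082.25 to 1753.25), against 2433.5, 2032.5 and 2064 bp. At 20 to 40 the 172 sites had 1132 bp, against 1489, 1342 and 1415 bp. The order did not hold among the weakest, where 355 sites at folds of 10 to 20 had 865 bp and protein-coding gene ends 776.5 bp. The site median was 0.649, 0.548, 0.760 and 1.11 times that of protein-coding gene ends, from the highest band to the lowest. With bands of summit fragments in place of fold, the ratio was 0.633 at 180 fragments or more and 0.759 at 120 to 180. It was 1.02 at 60 to 120 (0.930 to 1.09 over the 95% order-statistic interval of the site median), where the direction turned, and 1.18 under 60, so against protein-coding gene ends the difference rests on the sites of more than 120 fragments. At 60 to 120 fragments the sites had 1010 bp, against 1156 bp at long non-coding RNA gene ends and 1272 bp inside genes. Within these bands too the sites had fewer fragments than protein-coding gene ends. The medians were 214.5 and 264 at 180 or more, and 144 and 154 at 120 to 180. How much of the difference in width goes with this was not tested.

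**Figure D3:**
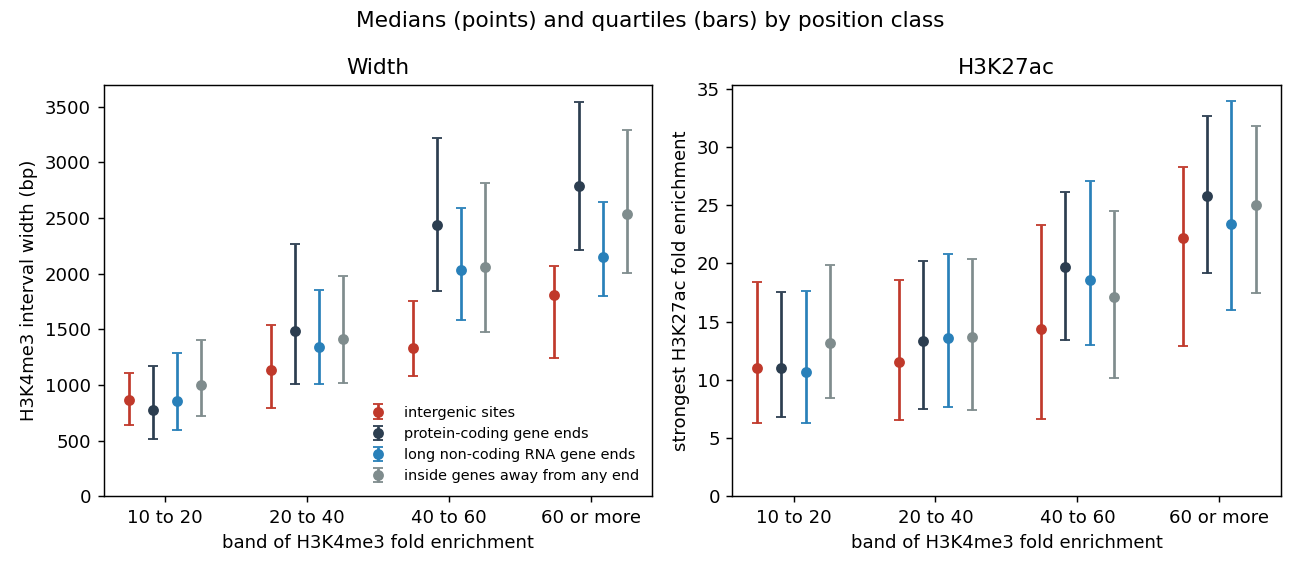
Median (point) and quartiles (bar) of the H3K4me3 interval width in bp (left) and of the strongest overlapping H3K27ac fold (right), in 4 bands of H3K4me3 fold, for the sites (red), protein-coding gene ends (dark), long non-coding RNA gene ends (blue) and peaks inside genes (grey). Above a fold of 40 the sites have the lowest median of the 4 classes in both panels.

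Broad sites were rare. A width of at least 2 kb was reached by 49 sites (7.64%, 5.83 to 9.96), against 56.0% of all peaks with both marks and 70.9% of protein-coding gene ends, without matching on fold. The widest, 7499 bp on chromosome 7 (125562792 to 125570290, fold 36.7), lay 96017 bp from any record and 632967 bp from POT1, a telomere protein gene. The next was 5005 bp on the X chromosome (114054705 to 114059709, fold 37.6), 524377 bp upstream of HTR2C, a serotonin receptor gene without H3K4me3 at its start. The others of the 5 widest were near METTL2B (4122 bp, fold 68.4), TENM3 (3804 bp, fold 53.0) and CHD7 on chromosome 8 (3567 bp, fold 55.4). The 2 broadest lay 96017 and 37603 bp from any record, with H3K27ac over 99.8% and 100% of their length.

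Across the 641 sites the strength of acetylation followed that of H3K4me3 only loosely, with a Spearman correlation of 0.14 between the folds. The sites share 1 library per mark. Both marks were conditions of the choice, which narrows their range, and no correlation was computed for the comparison classes. The strongest overlapping H3K27ac peak had a median fold of 11.8 (6.52 to 19.3, lowest 2.67, highest 53.4) and a median of 60 fragments. From the lowest to the highest band of H3K4me3 fold its median was 11.0, 11.5, 14.3 and 22.2. At protein-coding gene ends the same medians were 11.0, 13.3, 19.7 and 25.8. Among sites with an H3K4me3 fold of at least 40, 36 of 114 (31.6%, 23.8 to 40.6) had an H3K27ac fold under 10, against 8.87% of all such peaks. The share was 7.92% at protein-coding gene ends, 11.8% at long non-coding RNA gene ends and 16.0% inside genes. These shares are not matched on fold, and fewer of the sites reached 60. At folds of 40 to 60 the share was 30 of 82 sites (36.6%, 26.98 to 47.4). It was 14.7% (13.5 to 16.0) at protein-coding gene ends, 14.1% (9.08 to 21.1) at long non-coding RNA gene ends and 24.6% (19.8 to 30.2) inside genes. At 60 or more it was 6 of 32 sites (18.75%, 8.89 to 35.3), against 4.41% at protein-coding gene ends, 6 of 75 at long non-coding RNA gene ends and 8.01% inside genes. Strong H3K4me3 with weak acetylation was thus a larger share of the sites than of each comparison class in both bands. The intervals of peaks inside genes overlapped those of the sites in both bands, and those of long non-coding RNA gene ends did at 60 or more. At 60 or more only 6 sites are behind the share. Within these bands the sites also had a lower median of summit fragments than each comparison class. Peaks of 1 library are not replicates, so whether the classes differ was not tested.

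Named cases of such weakly acetylated sites were singled out after their values were seen. A site 66447 bp from RGS7, a regulator of G protein signalling, had an H3K4me3 fold of 63.3 and an H3K27ac fold of 3.95 over 300 bp. A site 6469 bp from DUSP8, a phosphatase of MAP kinases, had 41.4 and 3.16. The reverse also occurred, at 70 of 355 sites with an H3K4me3 fold under 20 (19.7%, 15.9 to 24.2), where H3K27ac reached 20, beside 30.3% of all such peaks, super-enhancers included. In the comparison classes it was 17.6% at protein-coding gene ends, 22.3% at long non-coding RNA gene ends and 24.5% inside genes, values on both sides of the sites. At 14347 bp from GTF2IRD1 the folds were 10.9 for H3K4me3 and 46.9 for H3K27ac. At 7040 bp from OLIG2, a transcription factor gene of the nervous system, they were 14.7 and 42.1. The highest H3K27ac fold, 53.4, was 23076 bp from HMGN2, a nucleosome-binding protein gene, at a site with an H3K4me3 fold of 70.5.

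The marks overlaid each other closely, as they did in the comparison classes, and an overlap was a condition of the choice. H3K27ac covered a median of 94.0% of the H3K4me3 interval (70.8 to 100), beside 95.6% inside genes, 90.6% at long non-coding RNA gene ends and 80.5% at protein-coding gene ends, and the strongest summits of the marks were a median of 47 bp apart. The H3K4me3 summit itself was acetylated at 626 sites (97.7%), beside 98.3% inside genes, 98.9% at long non-coding RNA gene ends and 99.2% at protein-coding gene ends. H3K27ac reached past both edges of the H3K4me3 interval at 277 sites (43.2%, 39.4 to 47.1), against 25.5% of all peaks with both marks and 13.0% at protein-coding gene ends. The share was 32.8% at long non-coding RNA gene ends and 47.1% (44.7 to 49.6) inside genes, whose interval overlaps that of the sites. Within bands of fold this share was 57.7%, 35.5%, 9.76% and 9.38% from the weakest to the strongest sites. At protein-coding gene ends it was 43.7%, 18.7%, 12.6% and 10.2%. In the weakest band it was 49.2% at long non-coding RNA gene ends and 69.5% inside genes, so small H3K4me3 peaks inside longer acetylated stretches were frequent among weak peaks of every class. At folds of 60 or more the overlapping H3K27ac spanned a median of 1378.5 bp, less than the H3K4me3 width of 1809 bp. The same order held at protein-coding gene ends (2295 and 2786 bp), long non-coding RNA gene ends (1742 and 2146 bp) and inside genes (2293 and 2532 bp).

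The sites were denser in shorter gaps between genes, although most of them lay in gaps of 30 kb or more. The median distance to the nearest gene record was 12665 bp (8165 to 23472, highest 273003) and to the nearest protein-coding gene 22787 bp. The nearest record was protein-coding at 277 sites (43.2%), a long non-coding RNA at 219 (34.2%) and a pseudogene at 129 (20.1%). Gaps of 10 to 30 kb held 169 sites, or 2.16 per Mb of sequence over 5 kb from any record, and gaps of 30 to 100 kb held 337, or 1.08 per Mb. Gaps of 100 to 300 kb held 116, or 0.309 per Mb, and gaps over 300 kb held 19, or 0.0557 per Mb. The median fold from the shortest to the longest gaps was 19.5, 19.4, 14.1 and 19.7, so strength did not follow gap length.

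Chromosomes 17 and 19 held the sites most densely. Chromosome 17 had 47 sites, or 2.19 per Mb of such sequence, and chromosome 19 had 26 sites in 11.8 Mb, against 0.579 per Mb over all. The next was chromosome 7 with 0.793, and the lowest was chromosome 4 with 0.233 (18 sites). Chromosomes 17 and 19 are rich in genes and short gaps, yet they were also denser at equal gap length. In gaps of 10 to 30 kb they had 5.40 per Mb (31 sites) against 1.91 elsewhere (138 sites), and in gaps of 30 to 100 kb 2.90 (32 sites) against 1.01 (305 sites). In longer gaps they had 0.606 (10 sites) against 0.179 (125 sites). Relative to peaks at protein-coding gene ends the order differed. Chromosome 13 had 12.1 sites for every 100 peaks at protein-coding gene ends, chromosome 17 had 7.04, and chromosome 19 had 3.12, beside 6.05 over all. On chromosome 8, of which KBM7 is known to carry an extra copy, the 34 sites had a median expected background of 4.92, which is 1.93 times that of sites outside chromosomes 8 and 15.

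**Figure D4:**
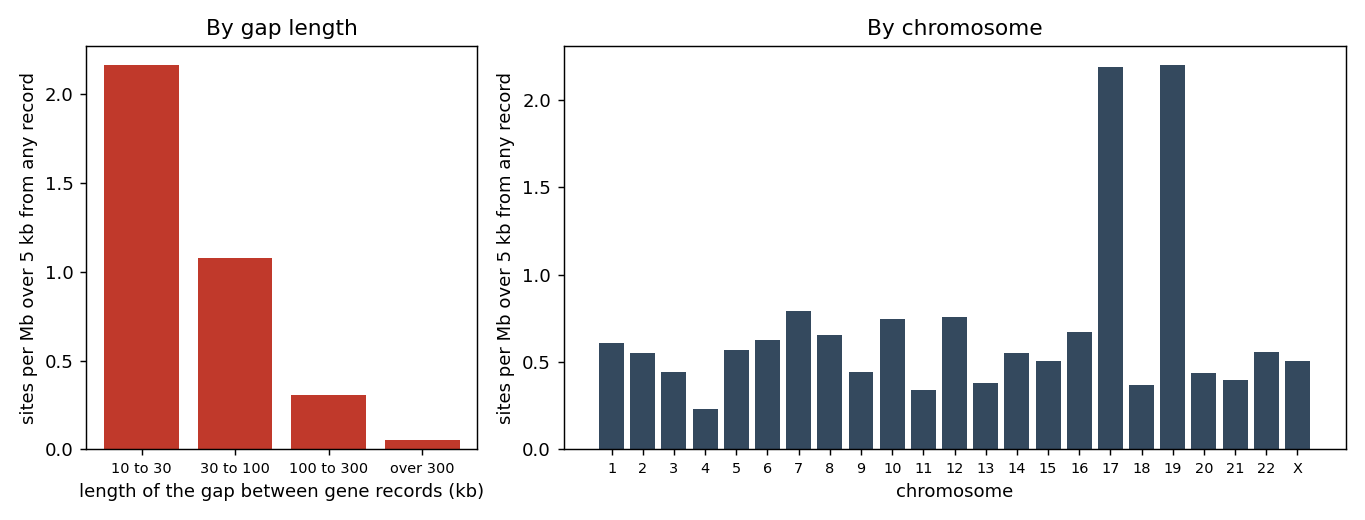
Sites per Mb of sequence lying more than 5 kb from any gene record, by length of the gap between records in kb (left) and by chromosome (right). The density goes from 2.16 in the shortest gaps to 0.0557 in the longest, and chromosomes 17 and 19 stand above 2 while all others are below 0.8.

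The most remote sites were moderate in strength. The farthest from any record was on chromosome 4 (59560294 to 59561060), 273003 bp away, with folds of 16.1 for H3K4me3 and 16.0 for H3K27ac. The next lay 200459 bp from any record, and its nearest protein-coding gene was SATB1, a chromatin organiser of blood cells (chromosome 3, 18740555 to 18741899, folds 11.2 and 7.05). A site of 2588 bp on chromosome 5, 155247 bp from any record and nearest to PRR16, was the strongest of the 5 remotest, with folds of 39.8 and 23.1. The last pair were near SH3BGRL on the X chromosome (folds 24.5 and 7.27) and KYNU, which encodes kynureninase (12.4 and 38.4).

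Most sites stood alone on this scale. Another site lay within 50 kb of 133 sites (20.7%, 17.8 to 24.1), and 72.2% of all peaks with both marks had another such peak that near. These shares are not comparable, since the sites are far fewer and lie away from genes by choice. There were 508 single sites, 53 pairs, 5 runs of 3 and 3 runs of 4. One run of 4 on chromosome 7 (25856173 to 25895898), 256300 to 293990 bp upstream of NFE2L3, a gene of the CNC transcription factor family, had folds of 11.6 to 39.95. The run on chromosome 9 (129383157 to 129414598) had folds of 12.2 to 38.9, and its last pair, 47 bp apart, shared a single H3K27ac interval of 4675 bp with a fold of 43.7. The run on chromosome 18 (62493067 to 62506989), upstream of the zinc finger gene ZCCHC2, had folds of 10.6 to 14.1. Neighbouring sites of this kind are not independent, and joining sites within 1 kb of each other left 628.

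A few sites neighboured regulators of blood cells. The nearest protein-coding genes numbered 564, which is 2.82% of all 19974, and 495 (2.48%) were within 100 kb. Of 40 haematopoietic transcription factor genes, 5 were nearest to a site, 4 of them within 100 kb. These are larger shares than those of all genes, but from few genes of a list chosen with earlier results of these data known. The gaps beside the genes were not matched either, so no trait of these genes is shown. The site nearest RUNX1, a master factor of blood formation, was 52926 bp upstream (fold 11.0), and that of BCL11A, a repressor of fetal globin, 27664 bp upstream (14.9). The site of PAX5, a B cell factor, was 66605 bp downstream (28.7), and that of HHEX, a homeobox factor, 61712 bp downstream (10.2). Their H3K27ac folds were 7.84, 3.61, 9.83 and 20.3 in the same order. Of 20 signalling and survival genes 2 were nearest, PIM1, a kinase gene induced by STAT5 (65951 bp, fold 17.9), and CCND2, which encodes cyclin D2 (130349 bp, fold 19.2). Of 20 neuronal adhesion and synapse genes 1 was, the cadherin gene CDH18, at 772601 bp (fold 10.3). Each site nearest to a gene of these 3 lists had a fold below 30, as did most of the 641 sites, of which 180 reached 30.

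Genes to which the authors assigned a super-enhancer were among the neighbours of the sites. Of the 564 nearest genes 30 (5.32%, 3.75 to 7.49) were such targets, against 2.25% of all protein-coding genes. The authors' label for these targets names closeness, a shared chromosome domain and expression. All protein-coding genes, expressed or not, are thus an unlike baseline. Counted by site, it was 36 of 641 (5.62%, 4.08 to 7.68), 4.42% (2.91 to 6.66) at long non-coding RNA gene ends and 6.14% inside genes. At protein-coding gene ends it was 2.26% (1.99 to 2.56). The share at the sites was thus near that of the 2 classes of peaks away from protein-coding gene ends. Every class leaves out peaks inside super-enhancers, including any at the ends of the targets themselves. How far this lowers the share at protein-coding gene ends was not tested. Within 100 kb of a super-enhancer lay 59 sites (9.20%), beside 8.16% of peaks at protein-coding gene ends. The median distance was 1270848 bp.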

How the data were processed

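H3K4me3 and H3K27ac were measured in 1 library each of KBM7 cells. Per the submitters' processing notes, Bowtie2 2.3.4, bedtools 2.20.1 and hg38 were used; no source names the peak caller. The deposited peak lists give the authors' fold enrichment at the summit (a ratio to the expected background), −log10 p and q, and a score equal to 10 times the −log10 q, rounded down. Both lists end at a q of 0.05. The super-enhancer table the authors deposited holds total signal, its difference as a score, and target genes; its regions and targets were used.

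Distances and overlaps (at least 1 bp) were computed with Python 3.11.15, pandas 2.3.3 and scipy 1.17.1, using 59098 RefSeq gene records of GRCh38.p14 on chromosomes 1 to 22 and X. A distance is the difference between the nearest end positions. A gene absent from that table would count as unannotated, and density per Mb includes unsequenced stretches. The fold and −log10 p of all 36951 H3K4me3 rows fitted a whole number of fragments, with the fold as (fragments + 1)/(expected + 1) and p as the upper Poisson tail, within 0.01 of the −log10 p. Read totals of the libraries are unknown here. Shares have 95% Wilson intervals, which cover counting error only, since peaks of 1 library are not replicates. The functions were tested on simulated data.

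Named sites are the 10 of highest H3K4me3 fold, the 5 widest, the 5 of highest H3K27ac fold, the 5 farthest from a record, the 3 largest runs, and those within 100 kb of a listed blood factor or signalling gene. Also named are the sites just inside the fold and distance thresholds, and those nearest CCND2 and CDH18, list genes over 100 kb away. Any other named site is said to be chosen after the sites or their values were seen. The members and gene lists were chosen with earlier results of these data known. Alternatives changed the fold, the distance, the overlap, the H3K27ac q and the super-enhancer margin.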

Additional observations from a re-analysis of the deposited data

Results flagged for a closer look

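Outside chromosomes 1 to 22 and X, 16 H3K4me3 peaks had a fold of at least 10 and overlapped H3K27ac, a signal in sequences that entered no comparison. They are among 45 H3K4me3 peaks on unplaced or unlocalised sequences, 26 of which reached a fold of 10, with a highest fold of 49.3.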

How the results depend on the processing

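Of the 66 alternative values computed, 47 differed little from those reported, which means within 1.5 times for the number of sites and within the 95% interval of the reported value for the others. The number of sites was 1596 at a fold of at least 5, 286 at 20 and 180 at 30. It was 400 at more than 10 kb and 49 at more than 50 kb from any record, and 1728 when only protein-coding records counted. At a fold of at least 20 the median width was 1216 bp, the median fold 35.5, the median H3K27ac fold 13.2, the median covered share 85.9%, the share within 50 kb of another site 16.1% and the median distance to a protein-coding gene 19472 bp. That distance was 32801.5 bp for sites more than 10 kb from any record. Where H3K27ac had to cover at least 50% of the interval, the median fold was 17.1, the H3K27ac fold 13.9 and the covered share 97.9%. The ratio of widths to gene-end peaks turned to 1.02 in the second band of summit fragments and was 0.759 in the third; bands of fragments hold other peaks than bands of fold. Against gene ends of any biotype, an alternative chosen after seeing the data, it was 1.05 in the lowest band. No paired analysis was possible because each mark has 1 library. The summit fragments, 29 at the fewest, limit the precision of single weak sites.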

Other observations

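Beside the 641 sites, 179 H3K4me3 peaks of fold 10 or more lay over 5 kb from any gene record without any H3K27ac peak. At any fold, 3785 H3K4me3 peaks lay that far from a record. Relative to the nearest protein-coding gene with a known strand, 257 of 487 sites (52.8%, 95% Wilson interval 48.3 to 57.2) were on the upstream side and 230 on the downstream side. The gene had H3K4me3 at a listed start in 83.3% of the upstream and 83.9% of the downstream cases.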
